A study of Mus musculus with 32 samples.

Results

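The myogenic factors and satellite cell genes are a set of 10 genes that mark the stem cells of skeletal muscle or drive their differentiation. They were found by name in the deposited table, where all 10 members had counts among 54838 listed genes. The members are the satellite cell genes Pax7, Calcr, Megf10 and Ncam1, the myogenic regulatory factors Myf5, Myod1, Myog and Myf6, the cell adhesion gene Cdh15 and the fusion gene Mymk.

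The libraries are total RNA of 3 leg muscles, the gastrocnemius, the quadriceps and the tibialis, from male mice aged up to 3 months. The sick and the healthy knock-in mice were both homozygous for M743T in Gne, the gene of the key enzyme of sialic acid synthesis, and the labels divide them by state; the wild-type mice carried no knock-in. The gastrocnemius gave 3 sick knock-in, 3 healthy knock-in and 4 wild-type libraries, and the quadriceps and the tibialis gave 3 sick knock-in, 4 healthy knock-in and 4 wild-type libraries each, 32 in all. The design implies comparisons of sick knock-in with wild type, of healthy knock-in with wild type, of sick with healthy knock-in, and of the muscles. The labels do not say whether libraries of 1 group came from separate mice, so the p-values speak of the spread among libraries, which may be technical. What marked a mouse as sick is not stated in the labels used here.

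Satellite cells lie between the muscle fibre and its basal lamina and are the source of new muscle nuclei. In rest they express Pax7 and the calcitonin receptor gene Calcr; on activation Myf5 and Myod1 lead them into division, and Myog then drives exit from the cell cycle and fusion into fibres. Myf6 and, after nerve loss, Myog, Myod1 and Ncam1 are also expressed by the fibre nuclei themselves, so in whole muscle the level of these genes does not belong to satellite cells alone. In such bulk samples, fewer cells of a type and less RNA per cell cannot be told apart.

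On GRCm38, with GENCODE vM21 genes, Pax7 lies on chromosome 4 at 139737062 to 139833528 (minus strand), Cdh15 on chromosome 8 at 122847966 to 122867397 (plus strand) and Myog on chromosome 1 at 134289989 to 134292548 (plus strand). Myf5 and Myf6 are neighbours on chromosome 10, at 107482908 to 107486134 and 107492853 to 107494737 (both minus strand). The myogenic factors bind the E-box, CANNTG, on DNA, and promoters of muscle genes often carry it. RefSeq windows on GRCm38.p6, from 250 bases before to 50 after a RefSeq start, were at hand for 5 of the 10 members. The RefSeq start need not be the outer end of the GENCODE gene. The windows of Myog, Cdh15 and Pax7 are shown because the results below turn on these genes; capitals mark each CANNTG, which reads the same on both strands. The Myog window is chr1:134289754-134290053 on the plus strand, the Cdh15 window chr8:122848124-122848423 on the plus strand and the Pax7 window chr4:139832919-139833218 on the minus strand, each written 5′ to 3′ along the gene.
Myog: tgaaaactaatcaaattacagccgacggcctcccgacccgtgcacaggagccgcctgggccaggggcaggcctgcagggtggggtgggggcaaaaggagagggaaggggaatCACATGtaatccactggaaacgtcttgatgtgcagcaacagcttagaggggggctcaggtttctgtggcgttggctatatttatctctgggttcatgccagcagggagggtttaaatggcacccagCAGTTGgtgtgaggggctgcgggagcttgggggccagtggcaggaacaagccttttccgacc
Cdh15: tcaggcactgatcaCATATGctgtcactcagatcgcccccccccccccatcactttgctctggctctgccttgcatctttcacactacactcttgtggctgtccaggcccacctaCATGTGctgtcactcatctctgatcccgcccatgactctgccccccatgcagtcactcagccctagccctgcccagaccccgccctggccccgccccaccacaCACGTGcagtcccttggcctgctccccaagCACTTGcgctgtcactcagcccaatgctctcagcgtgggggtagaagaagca
Pax7: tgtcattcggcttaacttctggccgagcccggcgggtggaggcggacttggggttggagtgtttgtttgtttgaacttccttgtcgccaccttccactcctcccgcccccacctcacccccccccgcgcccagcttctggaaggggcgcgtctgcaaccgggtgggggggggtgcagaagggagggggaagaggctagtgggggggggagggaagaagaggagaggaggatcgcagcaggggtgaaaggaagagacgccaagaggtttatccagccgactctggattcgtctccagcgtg
The Myog window held 2 E-boxes, which begin 138 and 12 bases before its RefSeq start. The Cdh15 window held 4 E-boxes, and the Pax7 window held 0. The Cdh15 and Pax7 windows lie wholly inside the GENCODE gene bounds given above. The bases before those outer gene starts were therefore not searched. Of 32851 RefSeq promoter windows of the same length, 72.31% held at least 1 CANNTG, 39.64% at least 2 and 6.487% at least 4. A match is a description of these letters and not a site of binding.

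The libraries held between 7685164 and 42588233 counts, and 1 count was worth 0.0253 to 0.118 CPM (counts relative to the scaled library total), and genes under about 1 CPM rest on few counts. All 18 skeletal muscle fibre markers were read in every library and took 17.2 to 29.4% of the counts. Gne had 6.82 to 14.1 CPM and no change was called in any comparison of states. The 8 kidney tubule genes listed after the data were seen, such as Umod and Kap, summed to 59.8 to 79.0 CPM in the 4 wild-type tibialis libraries and to 22.1 CPM in the healthy knock-in gastrocnemius library numbered 2, and to no more than 1.77 CPM in the other 27. Their part in the values of these 5 libraries was not tested.

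In wild-type muscle the members spanned a wide range of levels, with the fibre-expressed factor Myf6 far above the genes of the resting satellite cell. Levels between genes are compared as CPM per kilobase of exon, over the 12 wild-type libraries. Myf6 had a median of 56.0 CPM per kb, with a range of 48.7 to 78.1. Myod1 followed at a median of 7.59 CPM per kb (4.23 to 13.4), Cdh15 at 5.95 (4.46 to 7.12) and Myog at 4.40 (1.99 to 6.09). The ranges of Myod1, Cdh15 and Myog overlap, and all of them lie below every Myf6 value. The genes share the 12 libraries, and their order within single libraries was not tested. Ncam1 had a median of 0.944 CPM per kb (0.603 to 1.87), Myf5 0.826 (0.398 to 1.15), Mymk 0.709 (0.112 to 1.96) and Pax7 0.491 (0.417 to 0.718). Megf10 had a median of 0.385 CPM per kb (0.238 to 0.650) and Calcr was lowest at 0.160 (0.0106 to 0.303). From Ncam1 down each gene overlaps the next in order. Exons of Ncam1 overlap those of Gm11149 on the other strand, and since the strand setting of the counting is not given, their reads cannot be told apart.

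**Figure D1:**
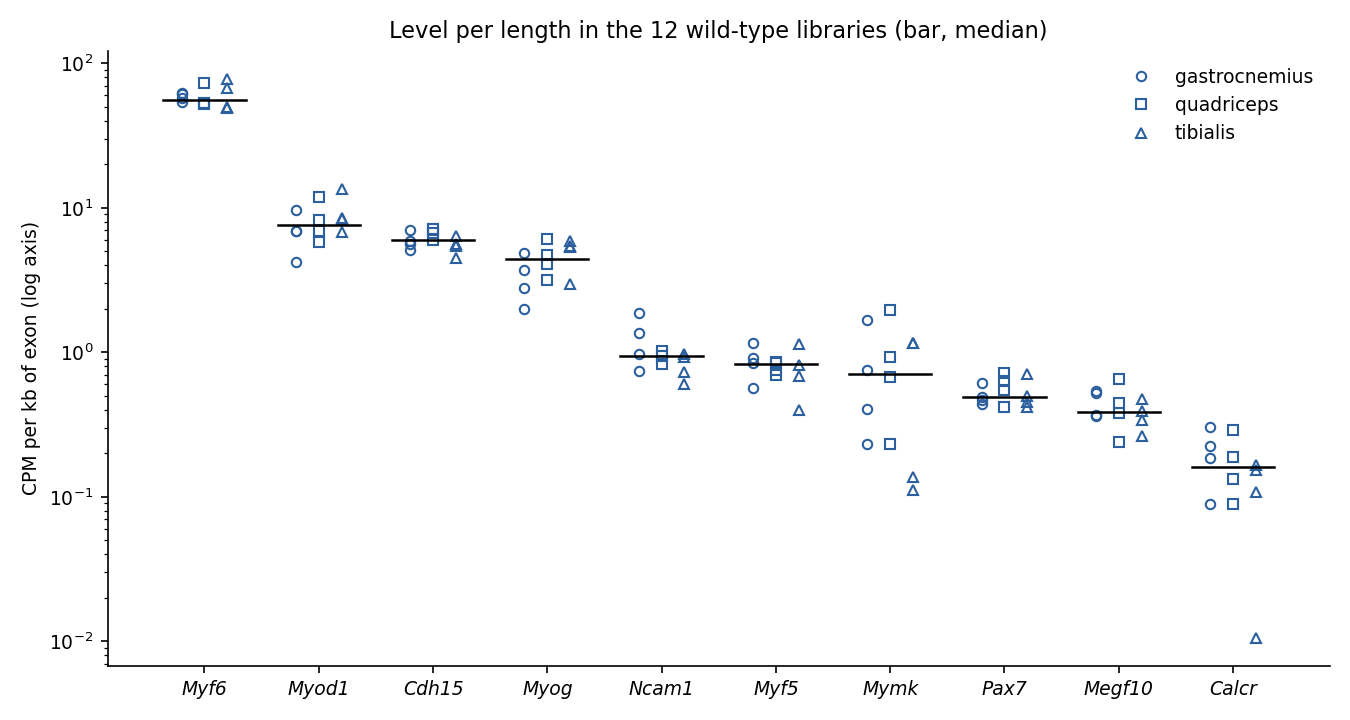
CPM per kb of exon (log axis) of each member in the 12 wild-type libraries, with 1 symbol per muscle and a bar at the median. Myf6 lies above all other members and Calcr has the lowest median, with 1 tibialis library at 0.0106.

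The 3 muscles of wild-type mice gave no call for any member by limma at an adjusted p under 0.05. Of 10 members tested, 0 were called in tibialis against gastrocnemius, tibialis against quadriceps or quadriceps against gastrocnemius, where 2.58%, 5.67% and 1.07% of 14708 genes were called. At an unadjusted p under 0.05 there was 1 member, Ncam1, with a log2 difference of -0.57 ± 0.25 (SE) in tibialis against gastrocnemius (limma, adjusted p = 0.299). With limma-trend in place of voom weights the count was also 0 in each pair of muscles.

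Against wild type, sick knock-in muscle had more Cdh15 and less Pax7, while the myogenic factors were either near the wild-type level or too spread to be called. Cdh15, the gene of M-cadherin, which joins satellite cells to the fibre and myoblasts to each other, was higher in sick knock-in libraries of all 3 muscles. Pax7, the transcription factor that marks satellite cells, was lower in the gastrocnemius and the quadriceps. In the gastrocnemius 1 member rose and 1 fell of 10 tested, against 14.7% of 14155 genes called in either direction. In the quadriceps 1 rose and 1 fell of 9 tested, against 18% of 13799 genes, and in the tibialis 1 rose and 0 fell of 10 tested, against 18.1% of 14520 genes. The shares of members called are near these backgrounds, and the backgrounds themselves rest on single libraries: without sick knock-in replicate 2 the genes called were 561, 83 and 957 in gastrocnemius, quadriceps and tibialis, against 2087, 2488 and 2621 with it. The median log2 fold change of the members was -0.30, -0.13 and -0.57 in gastrocnemius, quadriceps and tibialis, beside -0.03, 0.00 and -0.05 over all genes tested.

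**Figure D2:**
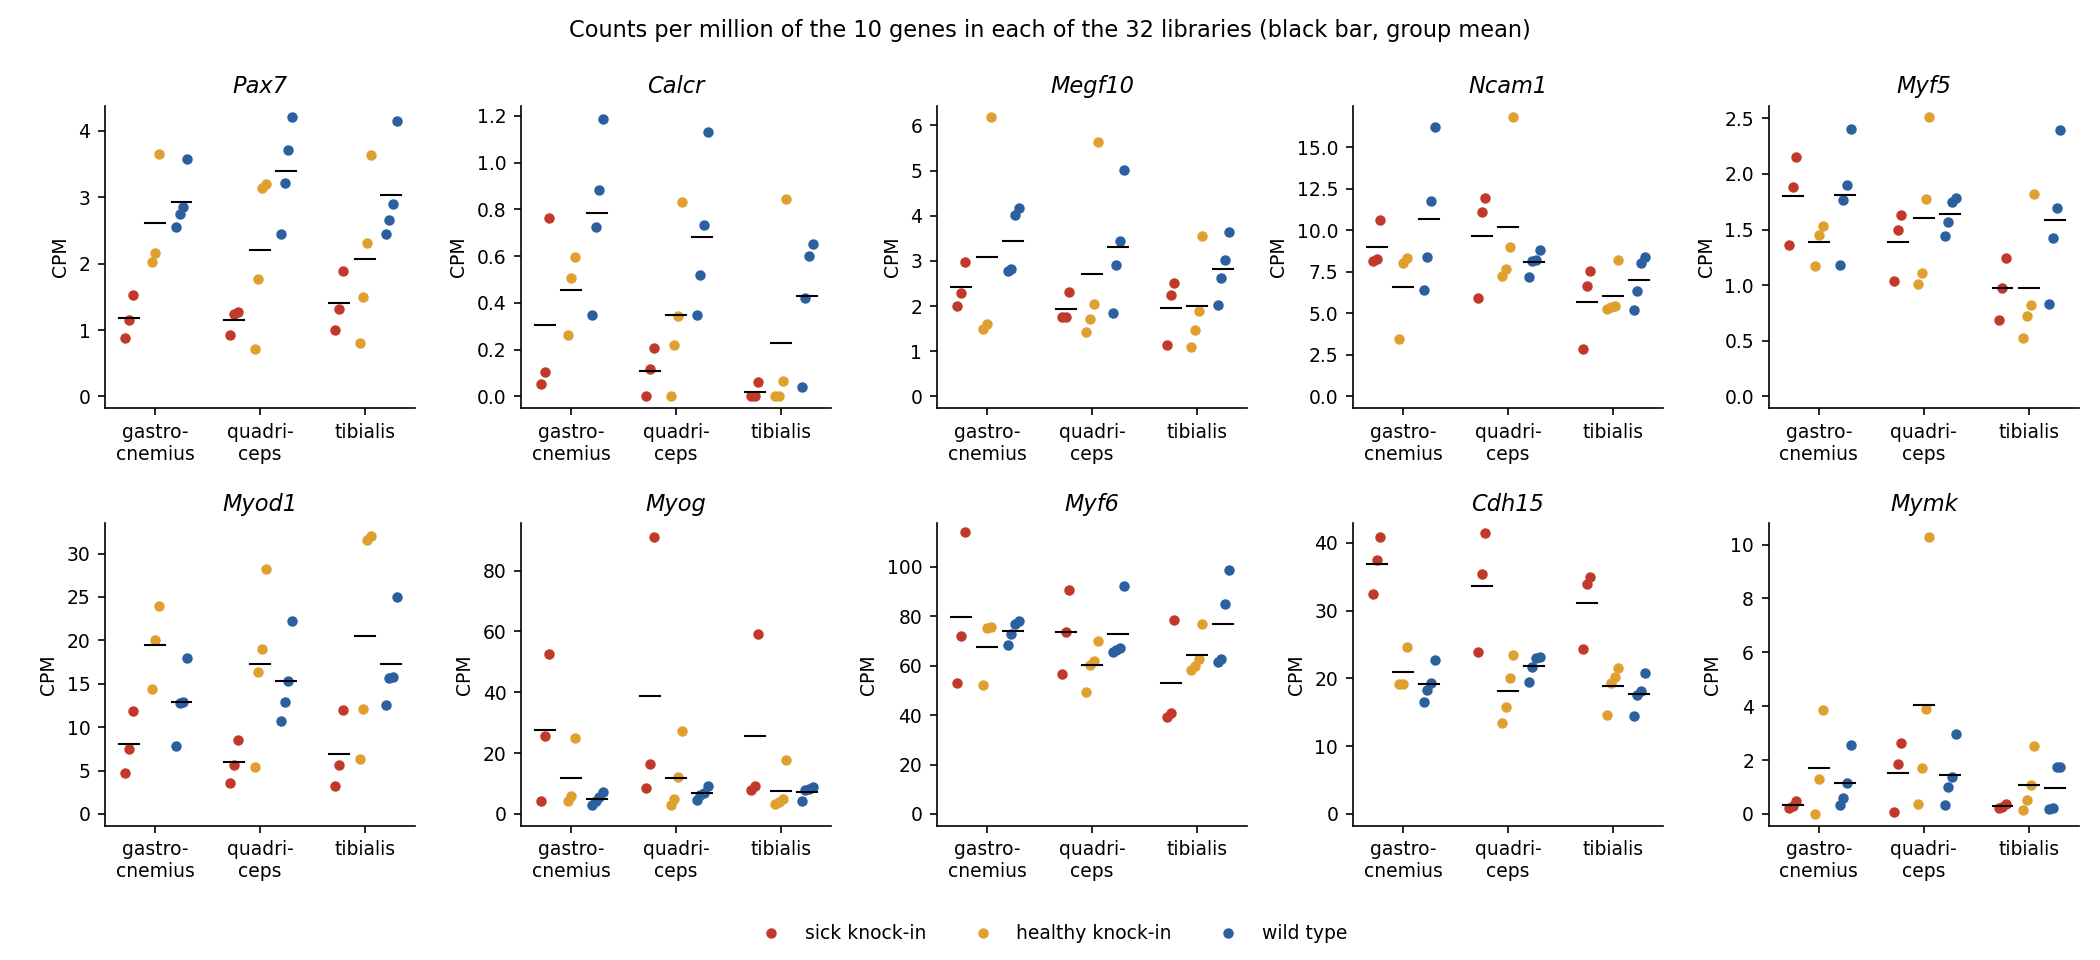
CPM of each of the 10 members (1 panel each, linear axis) in every library, by muscle and state, with the points of a group set out from low to high and a bar at the group mean. Sick knock-in points lie above wild-type points for Cdh15 and below them for Pax7 in all 3 muscles. At least 1 sick knock-in library per muscle stands far up for Myog, and in gastrocnemius those with 52.6 and 25.6 CPM do.

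Pax7 had 1.53, 0.887 and 1.15 CPM in sick knock-in gastrocnemius, against 2.75, 3.57, 2.55 and 2.85 CPM in wild-type gastrocnemius. Quadriceps had 1.24, 0.929 and 1.28 CPM in sick knock-in libraries, against 4.21, 3.21, 3.72 and 2.45 CPM in wild-type libraries. In the tibialis it had 1.90, 0.997 and 1.32 CPM in sick knock-in libraries, against 2.44, 4.15, 2.90 and 2.65 CPM in wild-type libraries. The sick knock-in libraries lay below every wild-type library in each muscle, and the groups did not overlap. Same-numbered sick knock-in libraries of different muscles deviated together (median r of 0.53), so agreement between muscles is not independent. The share of all genes with groups apart in this way is not given here. Both limits hold for the members below too. By limma the log2 fold change was -1.23 ± 0.34 (SE) in gastrocnemius (adjusted p = 0.0341) and -1.43 ± 0.42 in quadriceps (adjusted p = 0.0378), which are 0.426 and 0.371 times the wild-type level. In tibialis Pax7 had a log2 fold change of -1.09 ± 0.46 and did not pass (limma, adjusted p = 0.109). These values rest on 50, 48 and 78 Pax7 counts summed over the sick knock-in libraries of gastrocnemius, quadriceps and tibialis, against 283, 364 and 206 over the wild-type libraries. Without wild-type replicate 2, sick knock-in replicate 2 or sick knock-in replicate 3, the gastrocnemius call for Pax7 was lost, with log2 fold changes of -1.13, -0.96 and -1.26 at adjusted p of 0.0744, 0.176 and 0.0862 in limma. In the quadriceps it was lost without wild-type replicate 1, 2 or 3 or without any 1 of the 3 sick knock-in libraries, at adjusted p of 0.0520 to 0.175 in limma, while the log2 fold change stayed between -1.35 and -1.50.

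Calcr, a receptor that holds satellite cells in rest, was at the limit of what these libraries could count. It had 11, 1 and 1 counts in sick knock-in gastrocnemius, against 34, 16, 29 and 5 counts in wild-type gastrocnemius. In the quadriceps it had 4, 1 and 0 counts in sick knock-in libraries, against 21, 18, 29 and 4 counts in wild-type libraries, and it did not pass the filter on low counts there. In the tibialis it had 1, 0 and 0 counts in sick knock-in libraries, against 13, 5, 9 and 1 counts in wild-type libraries. The groups overlapped in gastrocnemius and tibialis; in the quadriceps the sick knock-in libraries were all lower by CPM. The ratio of summed Calcr counts per scaled total, sick knock-in over wild type, was 0.352 in gastrocnemius (95% exact binomial interval 0.18 to 0.635), 0.179 in quadriceps (0.0563 to 0.437) and 0.0441 in tibialis (0.00108 to 0.267). These intervals cover counting error only, not the spread between libraries. Calcr did not pass in limma, at adjusted p of 0.101 in gastrocnemius and 0.123 in tibialis. Leaving out sick knock-in replicate 1 in gastrocnemius or wild-type replicate 4 in tibialis brought Calcr past the threshold, with log2 fold changes of -2.87 and -3.93 and adjusted p of 0.0409 and 0.0356 in limma. Calcr is also a gene of the kidney tubule, and 5 libraries held kidney genes. Calcr averaged 0.429 CPM in the 4 wild-type tibialis libraries among them, the lowest mean of the 3 wild-type muscles. Wild-type gastrocnemius and quadriceps averaged 0.784 and 0.684 CPM. Healthy knock-in gastrocnemius replicate 2 had 0.598 CPM of Calcr, the highest of the 3 healthy knock-in gastrocnemius libraries. The part of kidney RNA in these Calcr values was not tested.

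Megf10, a receptor that keeps satellite cells dividing rather than differentiating, was not called in any muscle. It averaged 2.42 ± 0.51, 1.95 ± 0.33 and 1.97 ± 0.72 CPM in sick knock-in gastrocnemius, quadriceps and tibialis (SD, n = 3 each), against 3.45 ± 0.75, 3.30 ± 1.32 and 2.83 ± 0.68 CPM in the wild-type muscles (SD, n = 4 each). Its log2 fold changes were -0.42 ± 0.43, -0.68 ± 0.44 and -0.57 ± 0.39 (SE), and the groups overlapped in each muscle. Ncam1, an adhesion molecule of satellite cells, of nerve and of fibres without nerve contact, had 9.0 ± 1.39, 9.66 ± 3.27 and 5.70 ± 2.49 CPM in the sick knock-in muscles, against 10.7 ± 4.30, 8.09 ± 0.68 and 7.0 ± 1.48 CPM in wild type. Its log2 fold changes of -0.17 ± 0.36, 0.25 ± 0.29 and -0.37 ± 0.31 did not pass in limma, and the groups overlapped.

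Among the myogenic factors, Myf5, which marks cells committed to the muscle lineage, had 1.80 ± 0.40, 1.39 ± 0.31 and 0.971 ± 0.279 CPM in sick knock-in gastrocnemius, quadriceps and tibialis, against 1.81 ± 0.50, 1.64 ± 0.16 and 1.59 ± 0.65 CPM in wild type. Its groups overlapped in every muscle and its log2 fold changes were 0.08 ± 0.29, -0.13 ± 0.33 and -0.50 ± 0.46. Myf6, the factor of the mature fibre, had 79.7 ± 31.3, 73.6 ± 17.0 and 52.8 ± 22.4 CPM in the sick knock-in muscles, against 74.1 ± 4.37, 72.9 ± 12.9 and 77.0 ± 18.1 CPM in wild type. In the tibialis its log2 fold change was -0.57 ± 0.26 (limma, adjusted p = 0.133). Leaving out sick knock-in tibialis replicate 4, which had 78.7 CPM of Myf6 against 40.7 and 39.1 CPM in the other 2, gave -0.91 at an adjusted p of 0.0185 in limma.

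Myod1, the factor of activated satellite cells, had 11.9, 4.69 and 7.45 CPM in sick knock-in gastrocnemius, against 12.8, 12.8, 17.9 and 7.86 CPM in wild-type gastrocnemius. For quadriceps the values were 8.58, 5.69 and 3.52 CPM in sick knock-in libraries, against 15.4, 12.9, 22.2 and 10.8 CPM in wild-type libraries. In the tibialis it had 11.9, 3.24 and 5.63 CPM in sick knock-in libraries, against 12.6, 15.7, 25.0 and 15.6 CPM in wild-type libraries. The groups overlapped in gastrocnemius, and in the other 2 muscles every sick knock-in library was lower than every wild-type library. The log2 fold changes of Myod1 were -0.73 ± 0.36, -1.31 ± 0.55 and -1.49 ± 0.61, and none passed in limma (adjusted p = 0.178, 0.110 and 0.102). With only the 2 groups compared, Myod1 passed in quadriceps (-1.34, limma, adjusted p = 0.0452). In a fit of all 32 libraries Myod1 and Pax7 passed in tibialis, with adjusted p of 0.0464 and 0.0458 in limma.

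Myog, the factor of terminal differentiation, was widely spread within sick knock-in muscle. It had 4.30, 52.6 and 25.6 CPM in sick knock-in gastrocnemius replicates 1, 2 and 3, against 7.32, 5.56, 2.98 and 4.18 CPM in wild-type gastrocnemius. In the quadriceps it had 91.2, 16.3 and 8.48 CPM in sick knock-in replicates 2, 3 and 4, against 7.01, 9.11, 6.14 and 4.72 CPM in wild-type libraries. In the tibialis it had 9.23, 59.2 and 7.98 CPM in sick knock-in replicates 1, 2 and 4, against 4.42, 7.95, 8.12 and 8.83 CPM in wild-type libraries. The library numbered 2 was the highest sick knock-in library in each muscle, and the lowest sick knock-in library lay within the wild-type range in each muscle. Sick knock-in replicate 2 was also the library farthest from wild type over all genes called higher in its muscle, with medians of 1.04, 1.01 and 1.25 on the log2 scale in gastrocnemius, quadriceps and tibialis. The mitochondrial share of counts was 4.79 to 6.69% in sick knock-in quadriceps, against 7.04 to 10.8% in wild-type quadriceps, and 8.28 to 12.3% in sick knock-in tibialis, against 13.4 to 15.5% in wild-type tibialis. In gastrocnemius it was 5.22 to 11.1% in sick knock-in libraries, against 8.23 to 12.6% in wild-type libraries. The part of these differences in the members' values was not tested. The log2 fold changes of Myog were 2.01 ± 0.85, 1.98 ± 0.82 and 1.32 ± 0.69, and none passed in limma (adjusted p = 0.129, 0.107 and 0.187). Without the sick knock-in library numbered 2 they were 1.08, 0.77 and 0.37, with adjusted p of 0.453, 0.544 and 0.689 in limma. Leaving out the lowest library instead brought Myog past the threshold in gastrocnemius without sick knock-in replicate 1 (log2 fold change 3.05, limma, adjusted p = 0.00814) and in quadriceps without sick knock-in replicate 4 (2.72, limma, adjusted p = 0.0241).

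**Figure D3:**
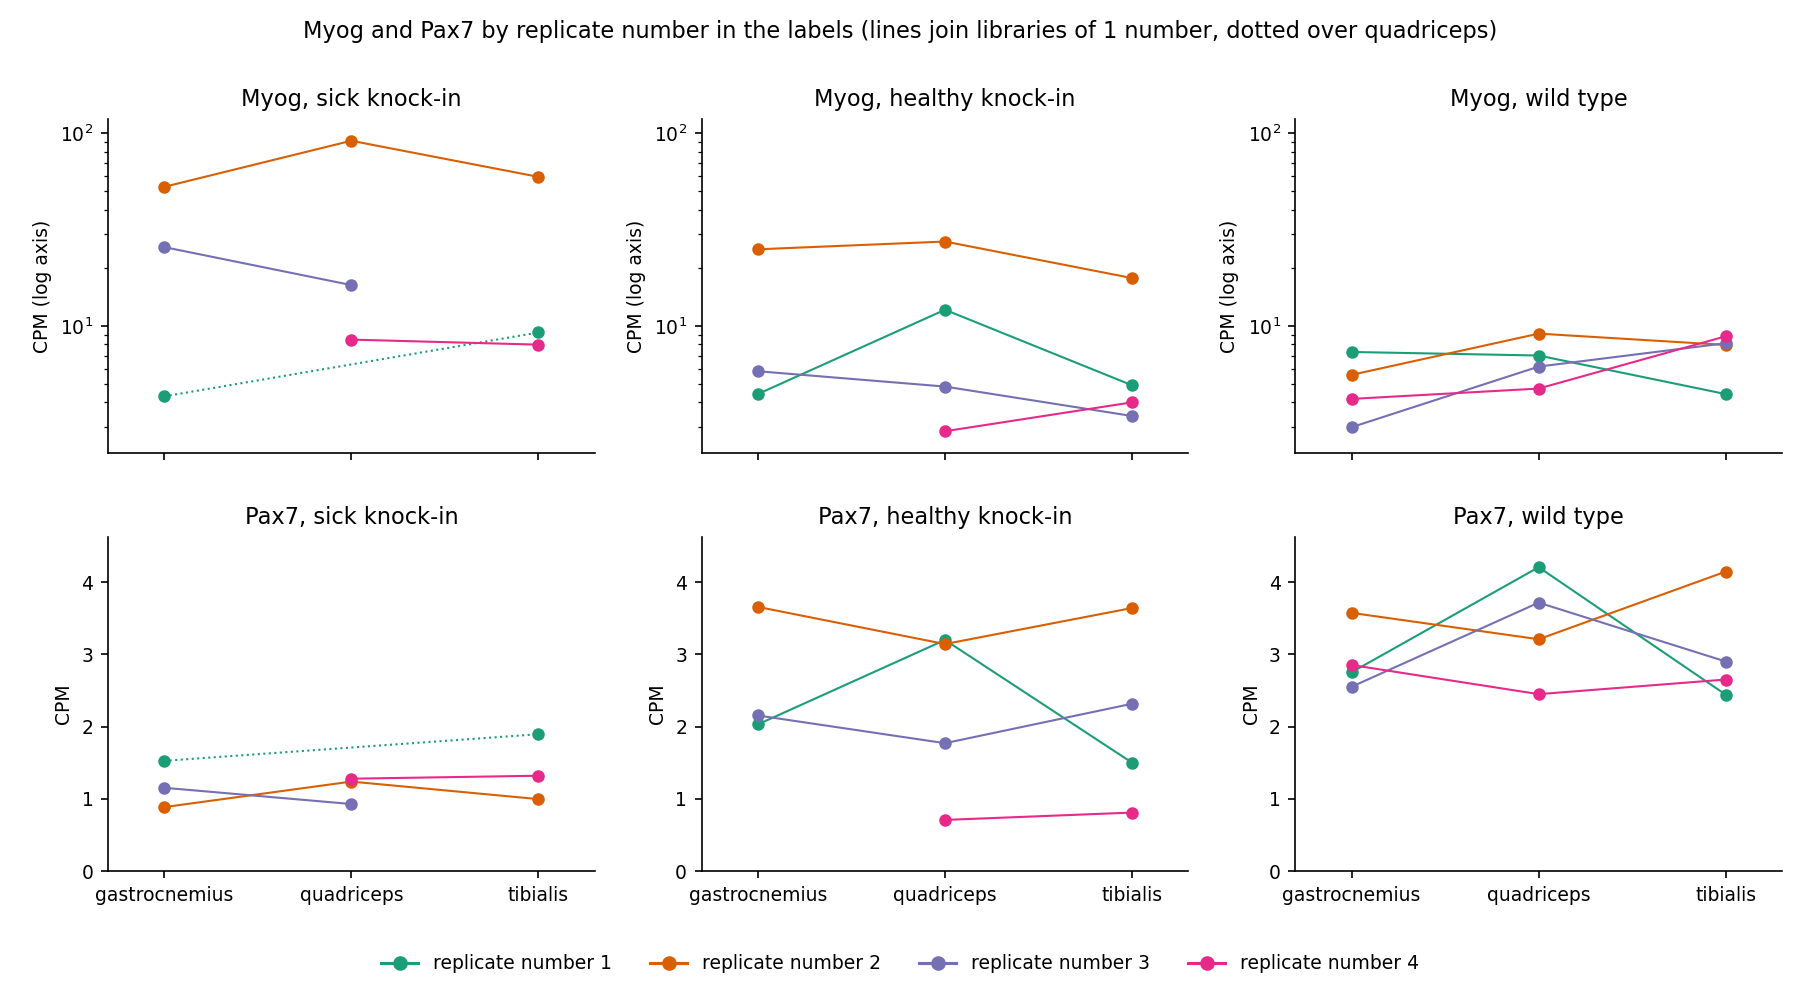
CPM of Myog (log axis, top) and Pax7 (linear axis, bottom) in sick knock-in, healthy knock-in and wild-type libraries, coloured by the replicate number in the labels. Number 2 is highest for Myog in every muscle of both knock-in states, and healthy knock-in number 4 is lowest of its state for Pax7 in quadriceps and tibialis.

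Cdh15 had 40.9, 32.4 and 37.5 CPM in sick knock-in gastrocnemius, against 22.7, 18.3, 16.5 and 19.3 CPM in wild-type gastrocnemius. For quadriceps the values were 41.5, 35.4 and 23.9 CPM in sick knock-in libraries, against 23.1, 19.4, 23.0 and 21.7 CPM in wild-type libraries. In the tibialis it had 34.9, 33.9 and 24.3 CPM in sick knock-in libraries, against 14.5, 18.1, 20.8 and 17.6 CPM in wild-type libraries. Every sick knock-in library lay above every wild-type library of its muscle, with sick knock-in replicate 2 nearest to wild type in gastrocnemius and replicate 4 in the other 2 muscles. By limma the log2 fold change of Cdh15 was 1.02 ± 0.16 in gastrocnemius (adjusted p = 0.00541), 0.68 ± 0.21 in quadriceps (adjusted p = 0.0433) and 0.83 ± 0.19 in tibialis (adjusted p = 0.0176), or 2.03, 1.60 and 1.78 times the wild-type level. The gastrocnemius call held in all 15 alternatives, with adjusted p of 0.000969 to 0.0254 in limma. The tibialis call was lost without sick knock-in replicate 1 (limma, adjusted p = 0.0525), and the quadriceps call was lost in 10 of 15 alternatives, among them leaving out any 1 wild-type library, sick knock-in replicate 2 (adjusted p = 0.261) or sick knock-in replicate 3 (adjusted p = 0.121).

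Mymk, which encodes myomaker, a membrane protein needed for myoblast fusion, was low and uneven in every state. It had 4, 9 and 2 counts in sick knock-in gastrocnemius, against 73, 25, 20 and 5 counts in wild-type gastrocnemius. In the quadriceps it averaged 1.52 ± 1.31 CPM in sick knock-in libraries, against 1.43 ± 1.11 CPM in wild-type libraries, and in the tibialis 0.283 ± 0.079 CPM in sick knock-in libraries, against 0.967 ± 0.899 CPM in wild-type libraries. The groups overlapped in every muscle, and the log2 fold changes of -1.39 ± 1.41, -0.39 ± 1.26 and -0.99 ± 1.08 did not pass in limma.

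**Figure D4:**
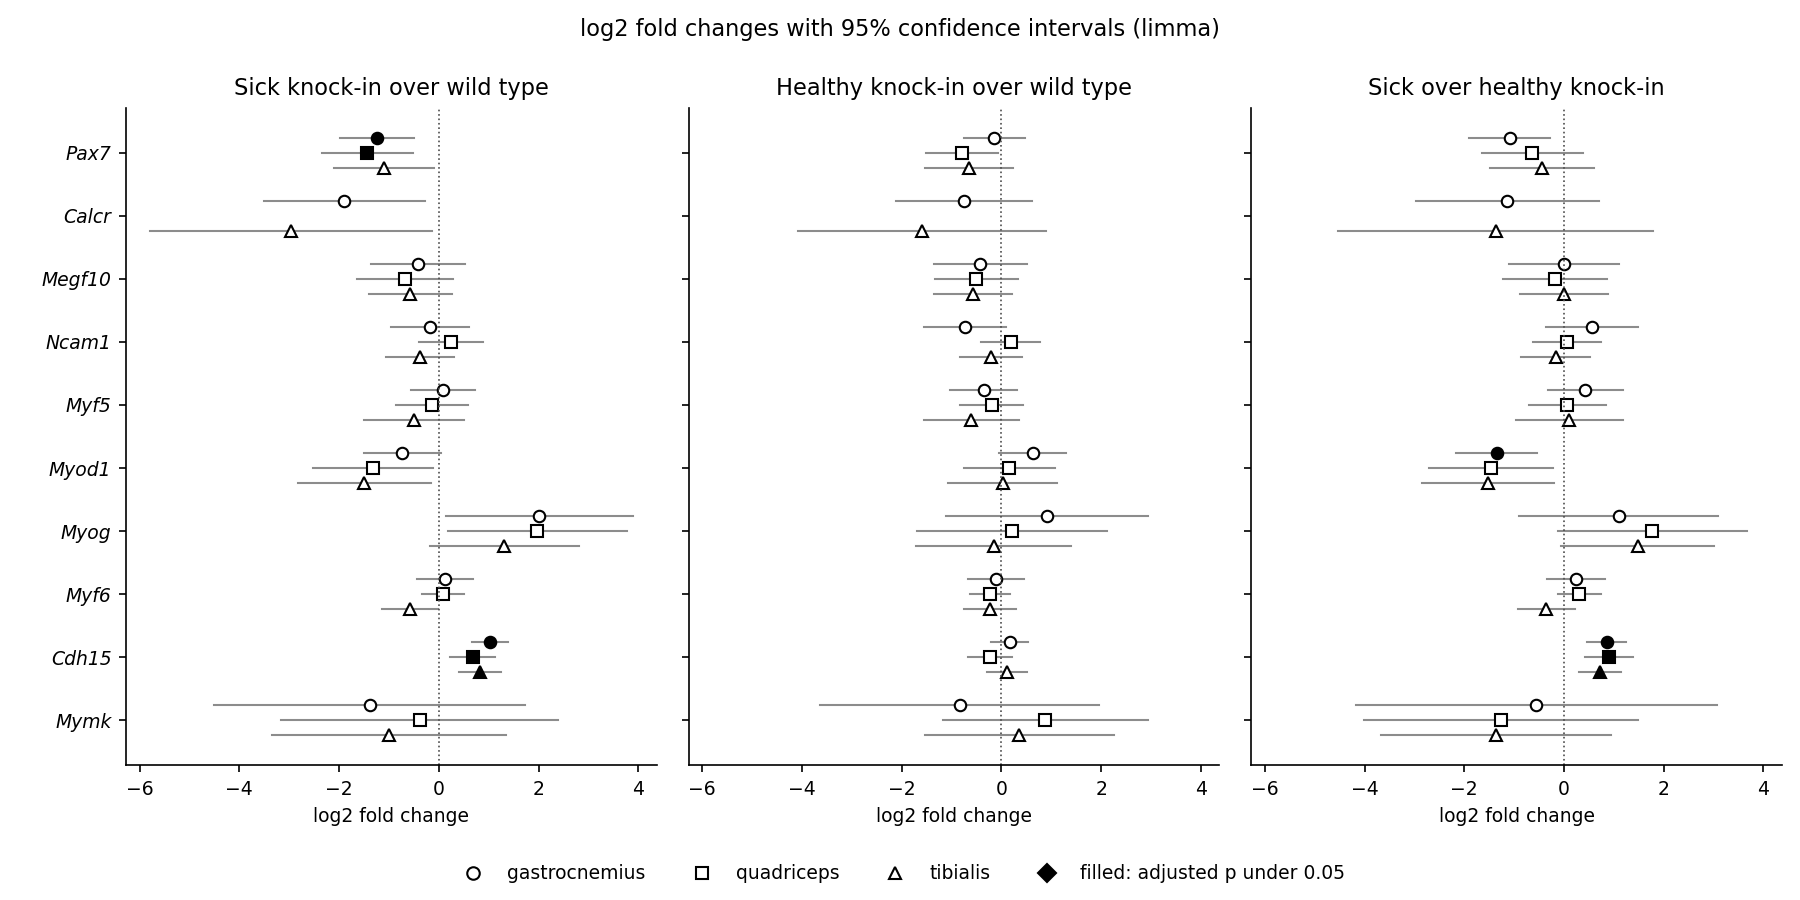
Log2 fold changes of the members with 95% confidence intervals (limma) for sick knock-in over wild type, healthy knock-in over wild type and sick over healthy knock-in, with 1 symbol per muscle and filled symbols at an adjusted p under 0.05. Cdh15 is filled in all 3 muscles in both comparisons of sick mice, and no symbol is filled for healthy knock-in over wild type. Calcr in quadriceps was not tested.

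The authors' deposited table gave the same directions for Cdh15 and Pax7. By the authors' deposited table there were 2 members higher and 1 lower in sick knock-in against wild-type gastrocnemius, where 12.3% of 25204 genes were called, and 2 higher and 1 lower in quadriceps, where 9.36% were called. For tibialis the authors' deposited table called 1 member higher and 2 lower, beside 15.2% of genes. The added members were Myog, with a log2 fold change of 2.55 in gastrocnemius (adjusted p = 0.0287) and 2.58 in quadriceps (adjusted p = 0.0335) in the authors' deposited table, and in tibialis Pax7 and Calcr, with -1.10 (adjusted p = 0.0450) and -4.48 (adjusted p = 0.0278) in the authors' deposited table.

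Healthy knock-in muscle against wild type gave no call for any member. In the gastrocnemius 0 of 10 members tested were called by limma, beside 0.00706% of genes; in the quadriceps 0 of 9, beside 0.0362%; and in the tibialis 0 of 10, beside 0.496%. At an unadjusted p under 0.05 there was 1 member, Pax7 in quadriceps, with a log2 fold change of -0.79 ± 0.33 (limma, adjusted p = 0.999). Limma-trend also called 0 in each muscle. The spread within the healthy knock-in group was wide for several members. Pax7 had 3.20, 3.14, 1.77 and 0.709 CPM in healthy knock-in quadriceps replicates 1 to 4, and 1.5, 3.64, 2.32 and 0.811 CPM in healthy knock-in tibialis replicates 1 to 4. Myod1 had 16.3, 19.0, 28.2 and 5.44 CPM in the same quadriceps libraries, and 12.1, 32.1, 31.6 and 6.35 CPM in the tibialis libraries. The healthy knock-in library numbered 4 was the lowest of its state for both genes in both muscles, below all wild-type libraries there. Myog was highest in the healthy knock-in library numbered 2 of each muscle, at 24.9 CPM in gastrocnemius, 27.4 CPM in quadriceps and 17.7 CPM in tibialis, above every wild-type library. Megf10 and Calcr were also highest in the healthy knock-in library numbered 2 of each muscle, and Cdh15 in that numbered 1.

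Set against healthy knock-in, sick knock-in muscle again had more Cdh15, with log2 fold changes of 0.86 ± 0.18 in gastrocnemius (limma, adjusted p = 0.0121), 0.91 ± 0.22 in quadriceps (adjusted p = 0.0210) and 0.72 ± 0.19 in tibialis (adjusted p = 0.0377). Cdh15 had 24.7, 19.2 and 19.1 CPM in healthy knock-in gastrocnemius, and its healthy knock-in values lay between 13.4 and 23.4 CPM in quadriceps and 14.6 and 21.5 CPM in tibialis, below every sick knock-in library of the same muscle. Myod1 was lower in gastrocnemius, where healthy knock-in libraries had 14.4, 23.9 and 20.05 CPM, with a log2 fold change of -1.35 ± 0.37 (limma, adjusted p = 0.0353). In all, 1 member rose and 1 fell of 10 tested in gastrocnemius, beside 14.1% of genes called, 1 rose of 9 in quadriceps, beside 17.6%, and 1 rose of 10 in tibialis, beside 11.3%. For sick against healthy knock-in, the authors' deposited table did not call Myod1 in gastrocnemius (-1.25, adjusted p = 0.114) and called it in quadriceps (-1.50, adjusted p = 0.0338) and tibialis (-1.55, adjusted p = 0.0219). Both comparisons of sick mice share the sick knock-in libraries. Pax7 overlapped between sick and healthy knock-in libraries in quadriceps and tibialis, and had log2 fold changes of -1.09 ± 0.37, -0.64 ± 0.46 and -0.44 ± 0.48 (limma, adjusted p = 0.0727, 0.348 and 0.553). With limma-trend Pax7 passed in gastrocnemius (-1.02, adjusted p = 0.0479). The Myod1 call in gastrocnemius was lost without healthy knock-in replicate 2 or 3 or sick knock-in replicate 2 or 3, at adjusted p of 0.0794 to 0.164 in limma. The Cdh15 call was lost in gastrocnemius without healthy knock-in replicate 3 (adjusted p = 0.0574), in quadriceps without healthy knock-in replicate 2 or sick knock-in replicate 2 or 3 (adjusted p = 0.0520 to 0.127), and in tibialis without healthy knock-in replicate 2, 3 or 4 or sick knock-in replicate 1 or 2 (adjusted p = 0.0584 to 0.102), all in limma. Myod1 passed in limma without healthy knock-in replicate 4 in quadriceps (log2 fold change -1.88, adjusted p = 0.0150) and in tibialis (-2.01, adjusted p = 0.0439). Myog passed in gastrocnemius without sick knock-in replicate 1 (2.14, adjusted p = 0.0421) and in quadriceps without sick knock-in replicate 4 (2.53, adjusted p = 0.0410).

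Whether the change in sick mice differs between muscles was tested in a fit of all 32 libraries. Of 10 members, 0 were called by limma for tibialis against gastrocnemius, tibialis against quadriceps or quadriceps against gastrocnemius, beside 0.204%, 0.243% and 0% of 15229 genes, and 0 had an unadjusted p under 0.05. Limma-trend called 0 as well. The difference in Cdh15 change was -0.19 ± 0.27 on the log2 scale in tibialis against gastrocnemius, with a 95% interval of -0.74 to 0.37, and that of Pax7 was 0.14 ± 0.59, with an interval of -1.08 to 1.36. This fit treats the 32 libraries as independent, while same-numbered libraries of different muscles deviated together (median r of 0.53, 0.525 and 0.463 in sick knock-in, healthy knock-in and wild type), so the intervals do not allow for it. With the replicate block the differences were 0.02 for Cdh15 and 0.11 for Pax7, and 0 members were called. The block fits an effect per replicate number that all states share, so it does not allow for a link within a state either.

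Other genes around the satellite cell were compared by list. Of 23 other satellite cell genes tested, 2 rose and 0 fell in sick knock-in against wild-type gastrocnemius, 0 passed in quadriceps, and 1 rose and 2 fell in tibialis. Over all genes 14.7%, 18% and 18.1% were called in either direction in gastrocnemius, quadriceps and tibialis. The shares of this list and of the Notch list below lie under these. The same background holds for the lists that follow, and no list was tested as a set. Peg3, an imprinted gene expressed in satellite cells, rose in gastrocnemius (log2 fold change 2.58 ± 0.45, limma, adjusted p = 0.00782) and tibialis (1.86 ± 0.50, adjusted p = 0.0274). The 2 genes of this list that fell in tibialis were Col5a3 (log2 fold change -1.77 ± 0.44, limma, adjusted p = 0.0212) and Hes1. Hes1 is also on the Notch list below, so it is counted in both. The summed level of 24 other satellite cell genes was 6136 to 6448 CPM in sick knock-in quadriceps, against 4459 to 4614 CPM in wild type. In tibialis the sum was 6206 to 7738 CPM, against 4330 to 6146 CPM in wild type. The ranges overlapped in gastrocnemius (5152 to 8169 against 4221 to 6402 CPM). Such a sum follows its most abundant genes, and which genes set it was not tested. Of the Notch pathway, which holds satellite cells in rest, 0 of 15, 0 of 14 and 2 of 15 genes were called in gastrocnemius, quadriceps and tibialis. Both fell in tibialis, with log2 fold changes of -1.31 ± 0.32 for the target gene Hes1 and -0.98 ± 0.26 for the ligand gene Dll4 (limma, adjusted p = 0.0212 and 0.0275).

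**Figure D5:**
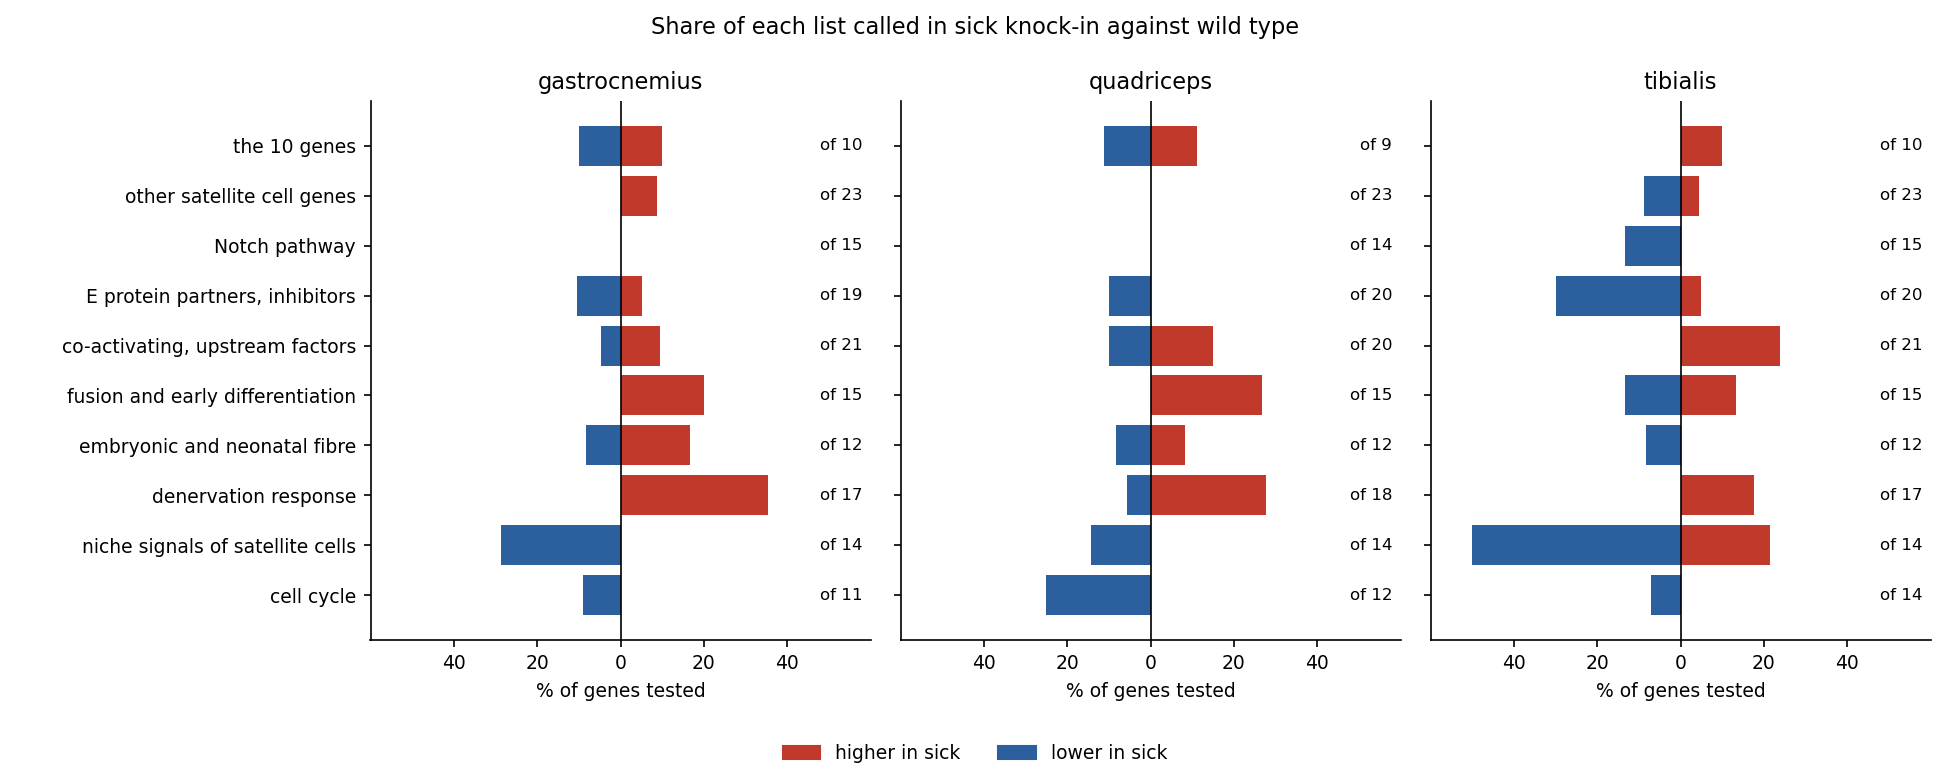
Share of the genes tested in each list that were called higher (right) or lower (left) in sick knock-in against wild type by limma, 1 panel per muscle, with the number tested at the right. Denervation response genes had 6, 5 and 3 higher calls and niche signals 4, 2 and 7 lower calls in gastrocnemius, quadriceps and tibialis.

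Among the E protein partners and inhibitors of the myogenic factors, 1 rose and 2 fell of 19 in gastrocnemius, 0 rose and 2 fell of 20 in quadriceps, and 1 rose and 6 fell of 20 in tibialis. In tibialis Id2, an inhibitor of E proteins, and Snai1, a repressor at E-boxes, fell, with log2 fold changes of -1.2 ± 0.23 and -1.44 ± 0.30 (limma, adjusted p = 0.00936 and 0.0116). Hdac5, a deacetylase that restrains MEF2 factors, rose in gastrocnemius (0.78 ± 0.15, limma, adjusted p = 0.0108) and tibialis (0.73 ± 0.21, adjusted p = 0.0319). Of the co-activating and upstream factors, 2 rose and 1 fell of 21, 3 rose and 2 fell of 20, and 5 rose and 0 fell of 21 in the 3 muscles in the same order. Mef2d rose in gastrocnemius and tibialis by 0.73 ± 0.21 and 0.72 ± 0.17, while Mef2c fell in quadriceps with a log2 fold change of -1.72 ± 0.32 (limma, adjusted p = 0.0370, 0.0188 and 0.0113). Both encode MEF2 factors, partners of the myogenic factors at muscle promoters. Eya4, a transcriptional co-activator, rose in tibialis by 1.19 ± 0.27 (limma, adjusted p = 0.0162).

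Of 15 fusion and early differentiation genes tested, 3 rose and 0 fell in gastrocnemius, 4 rose and 0 fell in quadriceps, and 2 rose and 2 fell in tibialis. Cdkn1a, the cell cycle inhibitor p21, rose by 2.50 ± 0.58, 3.73 ± 0.60 and 2.46 ± 0.69 on the log2 scale in the 3 muscles (limma; the same scale holds for the changes of all list genes; adjusted p = 0.0218, 0.0101 and 0.0314). Rb1, which holds differentiated muscle nuclei out of the cell cycle, rose by 1.14 ± 0.24, 0.76 ± 0.21 and 0.93 ± 0.18 (adjusted p = 0.0135, 0.0313 and 0.0101), and Jam3, an adhesion gene, fell in tibialis with a log2 fold change of -1.10 ± 0.23 (adjusted p = 0.0113). Neither Cdkn1a nor Rb1 is particular to muscle. Of 12 embryonic and neonatal fibre genes, 2 rose and 1 fell, 1 rose and 1 fell, and 0 rose and 1 fell. Ankrd1, a stretch-response gene, rose in gastrocnemius and quadriceps by 3.50 ± 0.36 and 3.05 ± 0.38 (limma, adjusted p = 0.00113 and 0.00563) and had -1.25 ± 0.81 in tibialis. Ckb, brain-type creatine kinase, fell in each muscle, its log2 fold changes being -1.24 ± 0.34, -0.88 ± 0.28 and -1.70 ± 0.33 (limma, adjusted p = 0.0347, 0.0482 and 0.00937). Xirp1, a repair protein of the fibre, rose in gastrocnemius by 2.19 ± 0.39 (limma, adjusted p = 0.00788).

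Denervation response genes, some of which are targets of Myog after nerve loss, rose in 6 of 17 in gastrocnemius, 5 of 18 in quadriceps and 3 of 17 in tibialis, and 0, 1 and 0 fell. Over all genes 14.7%, 18% and 18.1% were called in either direction, so the tibialis count is near the background, and the list itself was not tested. Sln, a regulator of the calcium pump, rose by 4.38 ± 0.65 in gastrocnemius and 5.37 ± 1.44 in quadriceps (limma, adjusted p = 0.00462 and 0.0303); Cdkn1a and Ankrd1, above, are on this list too. The median log2 fold change of the denervation list was 1.14, 1.2 and 0.35 in the 3 muscles. Of the cell cycle genes 0 rose and 1 fell of 11, 0 rose and 3 fell of 12, and 0 rose and 1 fell of 14. Ccnd1, cyclin D1, fell in quadriceps and tibialis, with log2 fold changes of -1.73 ± 0.42 and -2.41 ± 0.54 (limma, adjusted p = 0.0216 and 0.0152). Top2a, which untangles DNA, and Mcm2, part of the helicase that unwinds DNA, fell in quadriceps. Their log2 fold changes were -2.1 ± 0.67 and -0.94 ± 0.26 (limma, adjusted p = 0.0492 and 0.0323).

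Niche signals of satellite cells come in part from other cells of the muscle. Of 14 tested, 0 rose and 4 fell in gastrocnemius, 0 rose and 2 fell in quadriceps, and 3 rose and 7 fell in tibialis. The background is 14.7%, 18% and 18.1% of genes in either direction, above the quadriceps share of the list, and in tibialis 1226 genes were called higher and 1395 lower over all genes. Gdf11, a growth factor close to myostatin, fell in the 3 muscles, with log2 fold changes of -2.63 ± 0.42, -2.78 ± 0.59 and -1.74 ± 0.53 (limma, adjusted p = 0.00541, 0.0151 and 0.0411). Col6a1, a collagen chain of the satellite cell niche, fell in gastrocnemius and tibialis, with -1.73 ± 0.37 and -2.14 ± 0.39 (adjusted p = 0.0145 and 0.00764), and Mstn, myostatin, rose by 1.72 ± 0.27 in tibialis (adjusted p = 0.00474). In healthy knock-in against wild type 0 genes of these lists were called in any muscle.

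Lists of markers of other cell types differed in direction between sick knock-in and wild-type muscle. Of 12 fibro-adipogenic progenitor markers 0 rose and 6, 3 and 6 fell in gastrocnemius, quadriceps and tibialis, and 0 of the 12 were at 0 counts in every library. Their summed level was 1510 to 2922 CPM in sick knock-in gastrocnemius, against 3354 to 7829 CPM in wild type. It was 2693 to 3588 CPM in sick knock-in quadriceps, against 3361 to 7834 CPM in wild type, and 774 to 1636 CPM in sick knock-in tibialis, against 2254 to 5123 CPM in wild type. Of 10 tendon markers 3, 1 and 5 fell, of 14 macrophage markers 0, 5 and 0 rose, and of 12 smooth muscle markers 1, 1 and 1 fell. The summed level of the macrophage list was 382 to 508 CPM in sick knock-in quadriceps, against 192 to 306 CPM in wild-type quadriceps and 290 to 422 CPM in healthy knock-in quadriceps. In gastrocnemius it was 119 to 362 CPM in sick knock-in libraries, against 139 to 230 CPM in wild type. In tibialis it was 56.2 to 301 CPM in sick knock-in libraries, against 97.8 to 252 CPM in wild type. The summed level of the smooth muscle list had medians of 6544, 6068 and 6865 CPM in sick knock-in gastrocnemius, quadriceps and tibialis, against 4998, 4794 and 5703 CPM in wild type. Sick knock-in and wild-type ranges overlapped in gastrocnemius (4881 to 8459 against 4800 to 6783 CPM) and tibialis (5880 to 8004 against 4984 to 6843 CPM). In quadriceps they did not overlap (5773 to 6269 against 4707 to 4831 CPM). The smooth muscle gene called was Rgs5, which fell although the median sum was higher. Its log2 fold changes were -0.89 ± 0.24, -0.62 ± 0.14 and -0.97 ± 0.22 (limma, adjusted p = 0.0329, 0.0170 and 0.0163). The sum follows its most abundant genes, so it is no measure of the whole list. Of 13 Schwann cell genes 1 was higher in each muscle and 1 was lower in tibialis. The 12 endothelium genes had 0 calls in gastrocnemius, 1 lower in quadriceps, and 1 higher and 1 lower in tibialis. Of 10 slow fibre genes 0, 2 and 0 rose and 0, 0 and 1 fell, of 13 fast fibre genes 0, 0 and 2 rose and 1, 1 and 2 fell, and of 18 general fibre markers 0, 0 and 2 rose and 1, 1 and 3 fell. The part of these cell types in the values of Pax7, Cdh15 and the other members was not tested.

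For 9 of the members the genes most like each were those of highest Pearson correlation over the 9 group means of log2 CPM, out of 13562 genes; with 9 points that share their libraries this describes the groups only. Cdh15 was closest to Clip1, Ddx46 and Ahcy (r = 0.996, 0.993 and 0.99), and Myog to Ccdc141, Chd1 and Ddb1 (0.988, 0.982 and 0.980). Pax7 was closest to Dbp, Capza1 and Has3 (0.981, 0.980 and 0.976), Myod1 to Tmem220, Gfod2 and Hspb3 (0.979, 0.978 and 0.977), and Calcr to Serpinb6b, Gm43185 and Gas2 (0.958, 0.943 and 0.941). Myf5 was closest to Fgfr2, Cldn34c1 and Ccdc152 (0.963, 0.912 and 0.910), and Mymk to 1700037H04Rik, Myo1f and Dhx34 (0.961, 0.953 and 0.949). Megf10 was closest to Vmn2r97, Nek8 and Inhba (0.967, 0.925 and 0.923) and Ncam1 to Csad, Slc36a2 and Cgnl1 (0.920, 0.917 and 0.915).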

How the data were processed

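The deposited table holds raw counts of 32 libraries, made by the authors, and log2 fold changes with p-values from the authors' own comparisons. The submitters' processing notes name cutadapt 1.18, TopHat2 2.1.1, HTSeq 0.6.0, DESeq2 1.22.1 and GRCm38; the settings, the strand option and the annotation were not stated. The raw values are whole numbers, but 6252 genes are marked missing in every library, so the columns were not classed as counts and limma-voom stood in for a count model. The members and gene lists were chosen with earlier results of these data known, and the kidney genes after these data were seen.

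Genes were kept where enough libraries (the size of the smallest group) reached the CPM that 10 counts make in the median library, and where counts summed to at least 15. Library totals were scaled with TMM (trims 0.3 and 0.05), and 0.5 was added before the logarithm. Limma 3.58.1 in R 4.3.3 fitted a mean per group with voom weights and robust moderation, within each muscle for states, over wild-type libraries for muscles and over all 32 libraries for differences between muscles. Benjamini-Hochberg adjustment ran over all genes of a comparison, with 0.05 as threshold. CPM use TMM over all 32 libraries, and lengths are exon unions of GENCODE vM21. The method was tested on simulated data. All 42 replicate pairs differed beyond sampling noise. Another 32 columns of scaled values were not used. Genes of other lists are named if among the 3 lowest adjusted p-values of the list past 0.05 for sick mice against wild type. The genes most like Myf6 are not reported here.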

Additional observations from a re-analysis of the deposited data

Results flagged for a closer look

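In groups of 4 libraries, 5 values of members stood apart from the other 3 libraries of their group by Dixon's criterion. There were 50 tests, of the 10 members in 5 groups. Chance gives about 1 in 20 for a single test, and tests of genes in the same libraries are not independent. Of the 5 values, 4 lie in healthy knock-in libraries numbered 2. In healthy knock-in tibialis replicate 2, Myog had 17.7 CPM, Calcr 0.844 CPM and Ncam1 8.22 CPM, each above the other healthy knock-in tibialis libraries. In healthy knock-in quadriceps replicate 2, Megf10 had 5.64 CPM. In wild-type quadriceps replicate 2, Myf6 had 92.3 CPM, above the other wild-type quadriceps libraries.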

How the results depend on the processing

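Of 2264 values of members under other settings, 2206 kept their direction and side of the threshold, 43 no longer passed, 15 came to pass and 0 reversed; the cause was not tested. In sick knock-in against wild type, the members called in gastrocnemius were 2, and 1 with the replicate block or with the healthy knock-in libraries numbered 4 and sick knock-in libraries numbered 2 left out, a setting chosen after seeing the data. In quadriceps they were 2, 1 with no filter on low counts, 0 with limma-trend and 0 with those libraries left out. In tibialis they were 1, and 3 in a fit of all 32 libraries. In sick against healthy knock-in they were 2 in gastrocnemius, 1 with all 32 libraries and 3 with limma-trend; 1 in quadriceps, 2 with the replicate block and 0 with only the 2 groups compared; and 1 in tibialis, 0 with no filter, with the replicate block or with only the 2 groups compared. Leaving out 1 library at a time gave 1 to 4, 0 to 2 and 0 to 2 in sick knock-in against wild type, and 0 to 3, 0 to 2 and 0 to 1 in sick against healthy knock-in. All other member counts stayed at 0. Over all genes, leaving out 1 library moved the calls in sick knock-in against wild type to 561 to 2547 in gastrocnemius, 83 to 4249 in quadriceps and 957 to 3043 in tibialis. With the block, Myog passed in quadriceps (log2 fold change 2.40, limma, adjusted p = 0.0377) and Pax7 was lost in gastrocnemius and quadriceps (adjusted p = 0.0508 and 0.0614). The block treats a replicate number as the same across states, so these changes rest on a pairing that the labels do not give. Replicate numbers do not pair states: same-numbered libraries of 1 muscle correlated above 0.1 in 6 of 29 pairs. Within a state, same-numbered libraries of different muscles did so in 6 of 6 sick knock-in, 10 of 10 healthy knock-in and 10 of 12 wild-type pairs, a hint from the data and not from the labels. A planned count model was not run, because the raw columns mark genes as missing. Depth limits Calcr and Mymk, which had 0 counts in some libraries.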
